A study of Mus musculus with 9 samples.

Results

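Genes that mark the pyramidal cells of hippocampal fields CA2 and CA3 were followed in dorsal hippocampus after knockdown of Camta1, a gene for a transcription activator that binds calmodulin. The 8 genes were chosen by their symbols, with earlier results of these data known: Nptx1, Bok, Cpne4, Rgs14, Amigo2, Pcp4, Necab2 and Map3k15. The deposited count table lists 31804 genes and has a row for 7 of the 8, and Pcp4 is not analysed here. Polyadenylated RNA was sequenced from 9 male C57BL/6NCrl mice, an inbred strain, each injected at 8 weeks of age with a recombinant adeno-associated virus (rAAV) and dissected 3 weeks later. The virus carried a non-targeting control shRNA in 3 mice, anti-Camta1 shRNA A in 3 and anti-Camta1 shRNA B in 3, so that the controls also received surgery, virus and a hairpin. A short hairpin RNA (shRNA) lowers the mRNA it matches. Tissue was taken from the region that fluoresced red from viral mCherry, and the promoter that drove the hairpins and the share of cells infected are not given in the sources used here.

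CA3 pyramidal cells receive the mossy fibres of the dentate granule cells and send the Schaffer collaterals to CA1. CA2 is a small field between them, known for its part in social memory and for synapses onto its proximal dendrites that resist long-term potentiation. Nptx1 encodes neuronal pentraxin 1, a secreted protein that gathers AMPA receptors at synapses, Bok a pore-forming member of the BCL2 family that is abundant in CA3, and Cpne4 a copine that binds membranes in a calcium-dependent way. Rgs14 encodes a regulator of G protein signalling that limits plasticity in CA2, Amigo2 a leucine-rich repeat adhesion protein, Necab2 an EF-hand calcium-binding protein of neurons, and Map3k15 a stress-responsive MAP kinase kinase kinase. Several of these genes, Nptx1 and Necab2 among them, are also expressed by neurons outside CA2 and CA3.

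CAMTA proteins bind DNA through a domain known to recognise CGCG-containing elements, so the sequence upstream of the members' start sites was searched on both strands for CGCG. Longer forms of that motif, ACGCGT with its flanking letters and the variant spelled CCGCGT, were searched as well. RefSeq (build GRCm38.p6) held an upstream sequence for 4 of the 7 analysed genes, namely Bok, Cpne4, Amigo2 and Necab2. The 250 bases before the start are printed for Amigo2, Bok and Necab2, to show the window richest in CGCG beside windows with a single match, read 5′ to 3′ on the strand of the gene, with CGCG in capitals. They lie at chr15:97247288-97247537 on the minus strand for Amigo2, chr1:93685325-93685574 on the plus strand for Bok and chr8:119446469-119446718 on the plus strand for Necab2.
Amigo2: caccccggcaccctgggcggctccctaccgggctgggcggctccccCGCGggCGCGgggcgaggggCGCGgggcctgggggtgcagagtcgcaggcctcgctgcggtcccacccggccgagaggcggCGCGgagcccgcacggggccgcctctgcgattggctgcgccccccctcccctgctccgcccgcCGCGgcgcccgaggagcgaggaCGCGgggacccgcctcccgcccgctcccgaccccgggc
Bok: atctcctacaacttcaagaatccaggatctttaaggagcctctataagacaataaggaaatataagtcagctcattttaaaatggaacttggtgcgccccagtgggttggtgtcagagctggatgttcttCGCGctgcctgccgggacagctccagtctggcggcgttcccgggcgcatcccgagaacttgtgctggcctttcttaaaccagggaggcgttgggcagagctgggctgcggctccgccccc
Necab2: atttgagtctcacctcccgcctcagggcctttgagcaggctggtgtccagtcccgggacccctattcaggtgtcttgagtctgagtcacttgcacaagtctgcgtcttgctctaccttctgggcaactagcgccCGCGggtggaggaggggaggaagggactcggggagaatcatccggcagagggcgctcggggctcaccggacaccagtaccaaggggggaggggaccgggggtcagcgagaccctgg
The Amigo2 window held 6 matches to CGCG and had a GC content of 84%, against a median of 52.4% over the 32851 upstream windows of the same length. One of these matches lies within the single match to CCGCGT, a motif that contains CGCG. The Bok window (GC 55.2%) and the Necab2 window (GC 64%) held 1 match each. Cpne4 has 2 annotated starts, and the windows before them held 2 and 0 matches. Of all windows, 33.8% held CGCG, 1.51% held ACGCGT, which none of these windows did, and 6.55% held CCGCGT. A match describes these letters and is not evidence of binding.

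Camta1 itself, the target of both hairpins, was measured first as a check of the labels. Its level, in counts-per-million (CPM) scaled by the trimmed mean of M-values, was 427, 455 and 442 CPM in the controls, 230, 174 and 254 CPM with shRNA A, and 239, 145 and 266 CPM with shRNA B. Every library with an anti-Camta1 hairpin lay below every control. The log2 fold change, given throughout with its standard error (SE), was -1.01 ± 0.22 with shRNA A and -1.02 ± 0.22 with shRNA B. The exact permutation test of the 6 knockdown libraries against the 3 controls gave p = 0.0119 (two-sided), the smallest that this design allows. The adjusted p of edgeR's quasi-likelihood test over the 16438 genes tested was 0.388 with shRNA A and 0.0776 with shRNA B, and over the alternatives it ranged from 0.0128 to 0.946 and from 0.00174 to 0.239. The authors' deposited values give Camta1 an adjusted p of 0.000358 in a single likelihood ratio test over the 3 groups. The libraries held 29123744 to 38189288 reads in genes, and 1 read was worth between 0.0259 and 0.0339 CPM. Libraries of one group differed beyond counting noise, and the count of animals rests on the design text of the series.

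All 7 genes were expressed above the filter on low counts and had reads in all 9 libraries, the lowest count being 49 for Map3k15 in control replicate 1. In the deposited table they are Nptx1 (ENSMUSG00000025582, on chromosome 11), Bok (ENSMUSG00000026278, 1), Cpne4 (ENSMUSG00000032564, 9), Rgs14 (ENSMUSG00000052087, 13), Amigo2 (ENSMUSG00000048218, 15), Necab2 (ENSMUSG00000031837, 8) and Map3k15 (ENSMUSG00000031303, X). Divided by the length of the merged exons (GENCODE M21), their control levels spanned from 181 ± 8.32 CPM per kb (SD, n = 3) for Nptx1 to 0.925 ± 0.548 CPM per kb for Map3k15. Bok at 36.5 ± 8.33, Necab2 at 31.7 ± 4.37 and Rgs14 at 30.6 ± 6.97 CPM per kb overlapped in their ranges over the controls. Their order within single libraries was not read. Cpne4 followed at 17.3 ± 3.17 CPM per kb, with a highest control value of 20.8 that lay below the lowest of Rgs14, 22.8. Amigo2 stood at 9.06 ± 2.21 CPM per kb, and its highest control value of 11.3 lay below the lowest of Cpne4, 14.8. The annotation is of another build than the one used for mapping, so these lengths are approximate. Exons of Map3k15 share 603 bases with those of Pdha1 on the opposite strand and exons of Amigo2 share 58 bases with those of Pced1b, and reads of unstranded libraries cannot be told apart there.

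**Figure D1:**
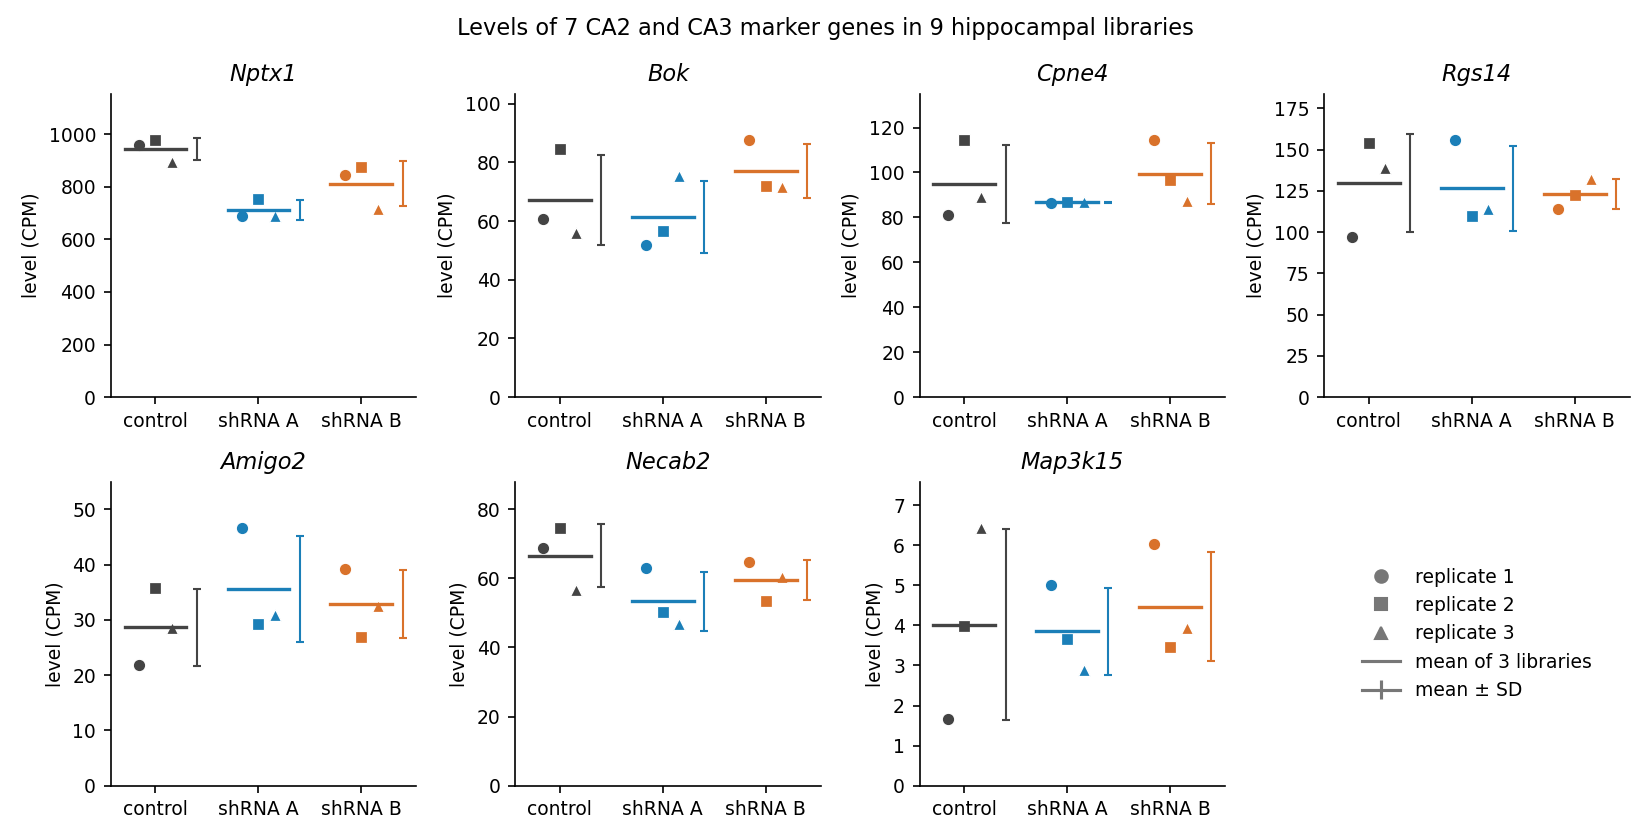
Level in CPM (y axis, from 0) of the 7 genes in the 9 libraries, grouped on the x axis by hairpin; symbols are single libraries numbered as in their labels, horizontal lines group means and bars ± SD of 3 libraries. The 6 Nptx1 values with an anti-Camta1 hairpin, 688 to 875 CPM, lie below the 3 control values, 895 to 978 CPM, while for the other 6 genes the groups overlap.

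Nptx1 was the one gene of the 7 whose knockdown libraries all lay below all controls. Its levels were 958, 978 and 895 CPM in the controls, 688, 755 and 689 CPM with shRNA A, and 846, 875 and 714 CPM with shRNA B. Relative to the mean of the controls, shRNA A libraries held 75.3% ± 4.08 (SD, n = 3) and shRNA B libraries 86.0% ± 9.12. Of all genes tested, 12.5% with shRNA A, 18.1% with shRNA B and 4.50% for the 6 libraries against 3 did not overlap with the controls in one direction or the other, so that groups without overlap are no rarity in these data. The log2 fold change was -0.41 ± 0.085 with shRNA A, -0.22 ± 0.085 with shRNA B and -0.31 ± 0.073 for the mean of both. By edgeR these values did not pass the threshold of 0.05, with adjusted p-values of 0.309, 0.306 and 0.136. The exact permutation test of 6 libraries against 3 gave p = 0.0238 (two-sided, not adjusted for the 7 genes tested). Because the genes were chosen with earlier results of these data known, that p is not from an independent test.

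The call for Nptx1 depended on the tool. DESeq2 gave the same fold change with shRNA A, -0.41 ± 0.086, with an adjusted p of 0.00283, and for the mean of both an adjusted p of 0.0044, while limma-voom gave 0.343 and 0.158. Over all alternatives the adjusted p ranged from 0.00283 to 0.777 with shRNA A and from 0.0044 to 0.464 for the mean of both. The authors' deposited table gives Nptx1 an adjusted p of 0.00139 in its single test per gene, with log2 fold changes of -0.41 for shRNA A and -0.22 for shRNA B. With shRNA B the fold change was -0.13 ± 0.080 without shRNA B replicate 3. Scaled by the summed counts of 10 neuronal genes in place of all genes, the fold changes of Nptx1 were -0.38 ± 0.091 with shRNA A and -0.20 ± 0.090 with shRNA B. Camk2a gave the largest part of that sum, at 8288 CPM on average. It was the 1 gene of the 10 with positive fold changes, 0.05 with shRNA A and 0.04 with shRNA B. Since this is bulk tissue, fewer cells of a type and less RNA per cell cannot be told apart.

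The other neuronal pentraxins were read beside Nptx1. Nptxr, which encodes the membrane-anchored neuronal pentraxin receptor, measured 1995, 2066 and 1640 CPM in the controls, 1414, 1455 and 1626 CPM with shRNA A, and 1679, 1687 and 1604 CPM with shRNA B. All 3 shRNA A values lay below all controls, and with shRNA B the groups overlapped through control replicate 3. The log2 fold changes of Nptxr were -0.34 ± 0.093 and -0.20 ± 0.093, with edgeR adjusted p-values of 0.466 and 0.396. Nptx2, the activity-regulated pentraxin, had positive fold changes of 0.41 ± 0.18 and 0.32 ± 0.18, with adjusted p-values of 0.721 and 0.514. None of the 3 pentraxins passed the edgeR threshold in any contrast.

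Necab2 had the next most negative fold changes. Its levels were 68.6, 74.4 and 56.5 CPM in the controls, 63.0, 50.2 and 46.8 CPM with shRNA A, and 64.7, 53.3 and 60.5 CPM with shRNA B. Control replicate 3 lay within the range of both knockdown groups. The log2 fold change was -0.32 ± 0.13 with shRNA A and -0.16 ± 0.13 with shRNA B, with edgeR adjusted p-values of 0.709 and 0.666. Its exact permutation p for 6 libraries against 3 was 0.131. Necab1, a relative with the same EF-hand motif, measured 55.1, 36.0 and 38.1 CPM in the controls, 32.6, 32.6 and 32.9 CPM with shRNA A and 25.6, 26.2 and 29.8 CPM with shRNA B. Its fold changes were -0.40 ± 0.14 and -0.66 ± 0.14, with adjusted p-values of 0.663 and 0.0544, and all 6 knockdown libraries lay below the controls. Necab3 had fold changes of -0.03 ± 0.14 and -0.02 ± 0.14.

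Bok, the BCL2 family gene of CA3, showed no separation of the groups. Its levels were 60.8, 84.5 and 55.9 CPM in the controls, 51.9, 56.7 and 75.2 CPM with shRNA A, and 87.7, 71.9 and 71.5 CPM with shRNA B. The fold change was -0.13 ± 0.18 with shRNA A and 0.20 ± 0.18 with shRNA B, with edgeR adjusted p-values of 0.905 and 0.725. The difference between the hairpins, 0.33 ± 0.18 for shRNA B minus shRNA A, had an adjusted p of 0.641. Of the 11 BCL2 family genes tested, 1 passed the threshold in any contrast. Pmaip1, which encodes the BH3-only protein NOXA, rose with shRNA B, from 0.984, 1.11 and 1.20 CPM in the controls to 2.02, 2.26 and 1.87 CPM, a log2 fold change of 0.90 ± 0.18 with an edgeR adjusted p of 0.0423. That call was lost whenever any single library was left out (adjusted p 0.0537 without shRNA A replicate 3 to 0.181 without control replicate 1), and also by limma-voom (0.0544), under neuronal scaling (0.0599), with the compared groups alone (0.0920) and with a replicate block (0.0692), whereas DESeq2 kept it (0.0333). Bcl2, the founding antiapoptotic gene, had the lowest fold change of the family with shRNA B, -0.30 ± 0.099 (adjusted p 0.228), and the highest with shRNA A, 0.21 ± 0.098 (0.723). For shRNA B minus shRNA A its value was -0.51 ± 0.099 (0.125), the lowest of the 11 genes. Bid was lowest with shRNA A, at -0.17.

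Cpne4 levels were 81.3, 114.5 and 88.9 CPM in the controls, 86.6, 86.8 and 86.9 CPM with shRNA A, and 114.2, 96.6 and 87.4 CPM with shRNA B. The 3 shRNA A libraries agreed closely and lay inside the control range, as did all shRNA B libraries. The fold changes were -0.13 ± 0.12 and 0.07 ± 0.12, with edgeR adjusted p-values of 0.861 and 0.881. Among the 9 copine genes tested, 0 passed the threshold in any contrast, and 2 with shRNA A and 1 with shRNA B had an unadjusted p under 0.05, as had 6.90% and 12.8% of all genes tested. The extremes of the family were Cpne7 at -0.79 ± 0.37 with shRNA A (adjusted p 0.741), Cpne2 at -0.57 ± 0.16 with shRNA B (0.148), Cpne8 at 0.28 ± 0.22 with shRNA A (0.827) and Cpne9 at 0.43 ± 0.29 with shRNA B (0.613). Cpne2 had control values of 40.1, 28.9 and 23.7 CPM and knockdown values between 19.4 and 22.8 CPM, with no overlap.

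The CA2 genes Rgs14 and Amigo2 varied more between mice of a group than between groups. Rgs14 measured 96.8, 154.0 and 138.6 CPM in the controls, 155.9, 109.7 and 113.8 CPM with shRNA A, and 114.3, 122.7 and 132.1 CPM with shRNA B. The lowest and the second highest of the 9 values were both controls. Its fold changes were -0.04 ± 0.18 and -0.08 ± 0.18, with edgeR adjusted p-values of 0.975 and 0.909. Its relatives of the same RGS subfamily had fold changes of 0.22 ± 0.083 and 0.26 ± 0.083 for Rgs10 and of -0.14 ± 0.085 and -0.14 ± 0.085 for Rgs12, and neither passed the threshold.

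Amigo2 measured 21.8, 35.8 and 28.5 CPM in the controls, 46.6, 29.3 and 30.8 CPM with shRNA A, and 39.3, 26.9 and 32.5 CPM with shRNA B. Replicate 1 was the highest library of each knockdown group and the lowest of the controls. Amigo2 had the most positive fold changes of the 7 genes with either hairpin, 0.31 ± 0.24 and 0.20 ± 0.24, with edgeR adjusted p-values of 0.823 and 0.803. Without shRNA A replicate 1, the value for shRNA A was 0.07 ± 0.21. Amigo1 and Amigo3, the other adhesion proteins of the family, had fold changes between -0.06 and -0.01.

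Map3k15 was the lowest and most variable of the 7 genes, at 1.66, 3.98 and 6.42 CPM in the controls, 5.02, 3.67 and 2.88 CPM with shRNA A, and 6.02, 3.46 and 3.93 CPM with shRNA B. The controls alone spanned the whole range of the 9 libraries. The fold changes were -0.07 ± 0.44 and 0.15 ± 0.43, with edgeR adjusted p-values of 0.982 and 0.925, so that changes of the size seen for Nptx1 were not detectable here. Map3k5, which encodes the related kinase ASK1, had fold changes of 0.00 ± 0.083 with shRNA A and 0.11 ± 0.083 with shRNA B, and Map3k6 of 0.05 ± 0.19 and 0.29 ± 0.19.

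For Pcp4, which encodes a small calmodulin regulator with an IQ motif, values were read only in other IQ-motif genes. Pcp4l1, its closest relative, had fold changes of 0.07 with shRNA A and -0.04 with shRNA B. Nrgn, the dendritic calmodulin-binding protein neurogranin, had 0.12 and 0.14, and Gap43, its axonal counterpart, -0.33 and -0.60. By edgeR 0 of these 3 genes passed the threshold in any contrast, the adjusted p of Gap43 with shRNA B being 0.198.

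**Figure D2:**
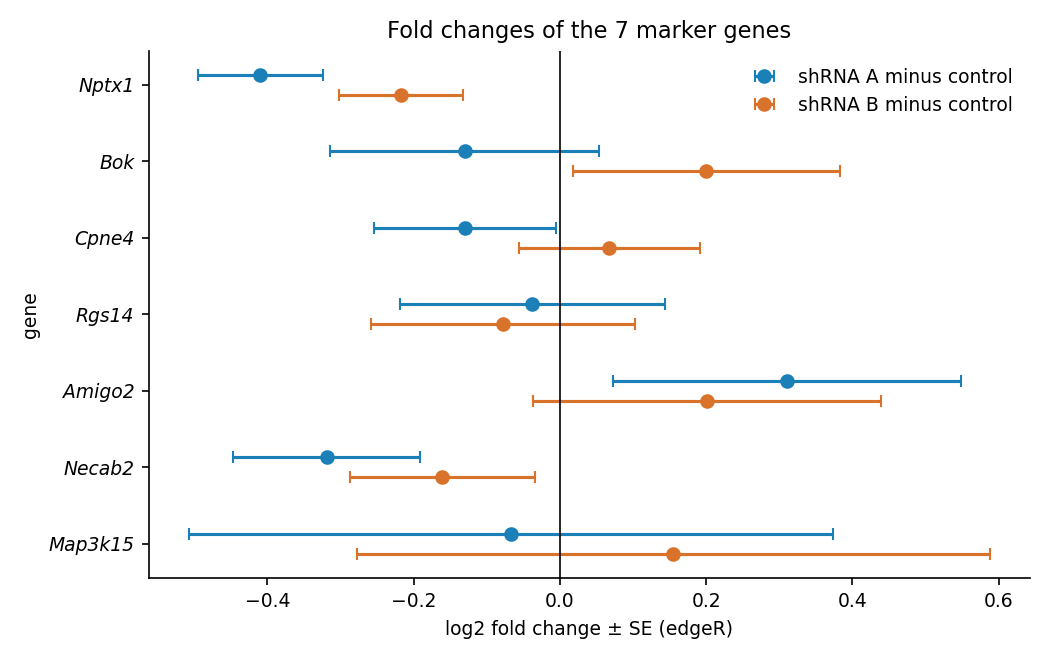
Log2 fold change ± SE (x axis) of the 7 genes (y axis) by edgeR for each hairpin against the shared controls. Nptx1 lies farthest below 0 with either hairpin, at -0.41 and -0.22, and Map3k15 has the widest bars, 0.44 and 0.43.

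By edgeR, 0 of the 7 genes passed the adjusted threshold in each of the 4 contrasts, where the share of all genes tested that passed was 0.0243% with shRNA A, 1.02% with shRNA B, 0.0973% for the mean of both and 0.00% for shRNA B minus shRNA A. At these shares a list of 7 genes holds too few members for a count of 0 to set it apart. With shRNA B minus shRNA A, 0 of all genes passed by edgeR and by limma-voom and 123 by DESeq2, with 1536 at an unadjusted edgeR p under 0.05. At an unadjusted p under 0.05, Nptx1 and Necab2 were counted with shRNA A, where 6.90% of all genes were. Nptx1 alone was counted with shRNA B, for the mean of both and for shRNA B minus shRNA A, where 12.8%, 10.4% and 9.34% of all genes were. DESeq2 called Nptx1 with shRNA A and for the mean of both, and limma-voom called 0 of the 7 genes in every contrast. Of the 16426 genes tested by DESeq2, it called 19 higher and 24 lower with shRNA A. For the mean of both it called 138 higher and 105 lower.

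Fold changes were negative for 6 of the 7 genes with shRNA A, where 49.9% of all genes tested were negative, and for 3 of 7 with shRNA B, against 49.7%. For the mean of both they were negative in 4 of 7, against 49.5%. The median fold change of the 7 genes was -0.13 with shRNA A, 0.07 with shRNA B and -0.03 for the mean of both, beside medians of 0.00 over all genes tested. For shRNA B minus shRNA A, 5 of 7 genes were positive with a median of 0.19. Both hairpins were compared with the same 3 controls, so their fold changes are not independent of each other.

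Bok, Cpne4, Rgs14, Amigo2 and Necab2 varied more between mice of a group than most genes did. The pooled SD of log2 CPM within groups was 0.11 for Nptx1, close to the median of 0.10 over genes averaging 5 CPM or more. It was 0.19 for Cpne4 and for Necab2, 0.26 for Bok, 0.27 for Rgs14, 0.33 for Amigo2 and 0.65 for Map3k15. For the 5 genes other than Map3k15 these values were larger than those of 88.0% (Cpne4) to 98.2% (Amigo2) of such genes. Map3k15 averaged less than 5 CPM and was not ranked among them. The highest library stood 1.41-fold (Cpne4) to 3.87-fold (Map3k15) above the lowest.

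Some libraries stood out in several of the 7 genes. They were picked after the ranks were seen and the same counts over all genes were not made, so shared variation was not tested. Control replicate 2 lay above the median of the 9 libraries in 7 of 7 genes and was the highest control in 6. Control replicate 1 was the lowest of the 9 libraries in 4 genes, and shRNA A replicate 2 lay above the median in 0. Genes also disagreed within a library. In control replicate 3, Map3k15 stood at 0.86 and Bok at -0.24 in log2 CPM from the control mean. Without control replicate 1, the fold change of Map3k15 was -0.43 ± 0.31 with shRNA A and -0.21 ± 0.30 with shRNA B, and without control replicate 3 it was 0.44 ± 0.40 and 0.66 ± 0.40. Without control replicate 2, that of Necab2 with shRNA B was -0.07 ± 0.14 in place of -0.16, and that of Cpne4 with shRNA A was 0.024 ± 0.0997 in place of -0.13.

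**Figure D3:**
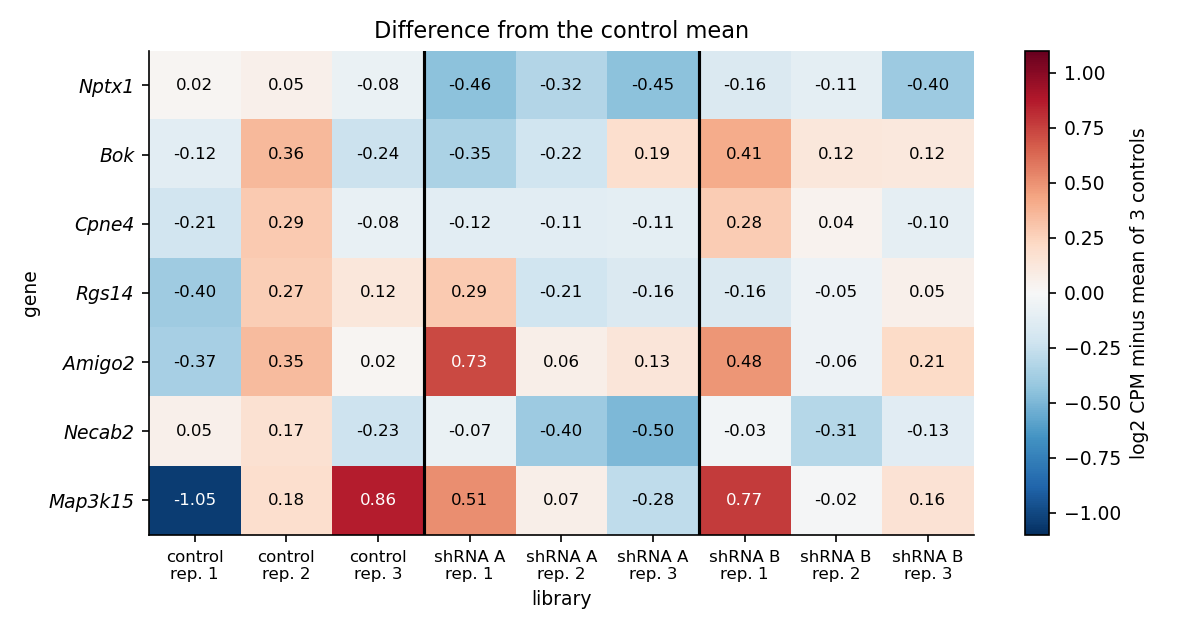
Log2 CPM of each of the 7 genes (rows) in each of the 9 libraries (columns) minus the mean of the 3 controls, with blue below and red above it. Nptx1 is negative in all 6 knockdown libraries, from -0.46 to -0.11, and the control columns differ most in Map3k15, from -1.05 to 0.86.

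Other markers of the same fields were given by lists. Of 5 further CA2 markers tested, 0 passed the edgeR threshold in any contrast, and 3 were positive with either hairpin, with a median of 0.22 with shRNA A and 0.65 with shRNA B. At an unadjusted p under 0.05, 2 of the 5 were counted with shRNA A and 4 with shRNA B, beside 6.90% and 12.8% of all genes tested. Cacng5, which encodes an auxiliary AMPA receptor subunit, measured 9.80, 14.9 and 19.6 CPM in the controls, 21.2, 13.8 and 16.6 CPM with shRNA A and 24.3, 25.0 and 20.4 CPM with shRNA B. All shRNA B values of Cacng5 lay above the controls, with a fold change of 0.65 ± 0.24 and an adjusted p of 0.306. Actn2, which encodes a spine alpha-actinin, went the other way, at 20.0, 18.6 and 16.6 CPM in the controls, 13.9, 13.7 and 13.4 CPM with shRNA A and 18.0, 15.6 and 12.5 CPM with shRNA B. Its fold changes were -0.43 ± 0.12 and -0.26 ± 0.12, with adjusted p-values of 0.487 and 0.384. Fgf2, a growth factor gene, had low levels, with a mean of 1.08 CPM over the 9 libraries and fold changes of 0.62 ± 0.26 (adjusted p 0.718) with shRNA A and 0.71 ± 0.25 (adjusted p 0.257) with shRNA B. Ntf3, which encodes neurotrophin 3, had fold changes of -0.04 ± 0.19 and -0.21 ± 0.19. Avpr1b had the most positive fold changes of the list, 0.85 ± 0.44 and 1.17 ± 0.43 (adjusted p 0.746 and 0.283). It averaged only 0.99 CPM, with 0.136, 0.828 and 0.787 CPM in the controls, and was 1 of the 4 counted with shRNA B. The CA2 markers thus included fold changes of either sign, as did Rgs14 and Amigo2.

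Of 8 further CA3 markers tested, 0 passed the edgeR threshold in any contrast. With shRNA A, 5 of 8 were negative with a median of -0.15, and with shRNA B 5 of 8 were negative with a median of -0.05. At an unadjusted p under 0.05, 2 of the 8 were counted with shRNA A and 1 with shRNA B, the latter near the 12.8% of all genes tested (6.90% with shRNA A). Cdh24, which encodes a cadherin, came nearest the threshold, at 21.2, 26.3 and 23.9 CPM in the controls, 24.1, 29.6 and 31.3 CPM with shRNA A and 30.2, 39.7 and 37.7 CPM with shRNA B. Its fold changes were 0.25 ± 0.13 and 0.59 ± 0.12, with adjusted p-values of 0.742 and 0.0525. Grik4, which encodes a high-affinity kainate receptor subunit of mossy fibre synapses, was named after its values were seen because its shRNA A values, 55.7, 58.4 and 61.3 CPM, lay below all controls, 80.4, 87.2 and 71.0 CPM. Its fold change was -0.44 ± 0.096 with shRNA A (adjusted p 0.33) and -0.13 ± 0.095 with shRNA B (0.649). Socs2, a cytokine signalling inhibitor, had the lowest value with shRNA A, -0.54 ± 0.17 (0.613), and Coch, which encodes cochlin, with shRNA B, -0.39 ± 0.24 (0.532). Prkcd had the highest value for shRNA B minus shRNA A, 0.42 ± 0.30, and Dkk3 the lowest, -0.08 ± 0.12.

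Summed marker levels were read with the share of each field in the dissected tissue in mind. The 7 genes together gave 1270 to 1446 CPM in the controls, 1045 to 1097 CPM with shRNA A and 1102 to 1272 CPM with shRNA B, and most of that sum was Nptx1. The 8 further CA3 markers gave 598 to 764 CPM, 628 to 654 CPM and 621 to 736 CPM in the same order, and the 5 further CA2 markers gave 37.1 to 47.9 CPM, 37.1 to 45.9 CPM and 41.2 to 53.8 CPM. Both lists overlapped between all groups. Most of the CA3 sum was Dkk3, at 455 CPM on average with fold changes of 0.03 and -0.05, so that overlap is mainly of 1 gene. The 8 CA1 markers gave 755 to 938 CPM in the controls, 934 to 1141 CPM with shRNA A and 591 to 1115 CPM with shRNA B, and the 10 dentate granule cell markers 633 to 869 CPM, 658 to 734 CPM and 503 to 819 CPM. No marker of these lists was at 0 in all libraries, and every library held reads of each list. Whether cells of other fields added to these sums was not tested, so they do not measure the share of a field. For shRNA B minus shRNA A, 0 of the 8 CA1 markers were positive with a median of -0.29, whereas 7 of the 8 further CA3 markers were positive with a median of 0.27, beside 49.5% negative over all genes. A list of 10 neuronal genes, the largest of them Camk2a, gave 16584 to 18820 CPM, 16327 to 17441 CPM and 16824 to 17314 CPM.

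Single libraries differed in these marker levels. Taken as the mean log2 difference of a list's genes from the control mean, the CA1 markers stood at 0.45, 0.12 and 0.21 with shRNA A and at -0.53, -0.18 and 0.37 with shRNA B, against -0.22, 0.17 and 0.05 in the controls. The 7 genes stood at 0.08, -0.16 and -0.17 with shRNA A and at 0.23, -0.05 and -0.01 with shRNA B, against -0.29, 0.24 and 0.06 in the controls. The 7 genes minus the CA1 markers gave -0.37, -0.28 and -0.38 with shRNA A, below the controls at -0.08, 0.07 and 0.01. With shRNA B they gave 0.76, 0.12 and -0.38. Minus the dentate markers they gave 0.20, -0.15 and 0.01 with shRNA A and -0.25, 0.44 and -0.19 in the controls. Minus the 10 neuronal genes they gave 0.14, -0.05 and -0.12 with shRNA A and -0.24, 0.12 and 0.12 in the controls. Both of these differences overlapped with the controls, as did the 7 genes by themselves. The dentate markers were lowest in shRNA B replicate 3, at -0.56, the library in which CA1 markers were highest of that group and Nptx1 lowest. The further CA2 markers were lowest in control replicate 1, at -0.45, and lay between 0.10 and 0.61 in the other 8 libraries. In the same units the further CA3 markers spanned -0.36 in shRNA A replicate 1 to 0.22 in shRNA B replicate 1. These marker levels moved with the libraries, and the part of tissue makeup in the values of the 7 genes was not tested.

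**Figure D4:**
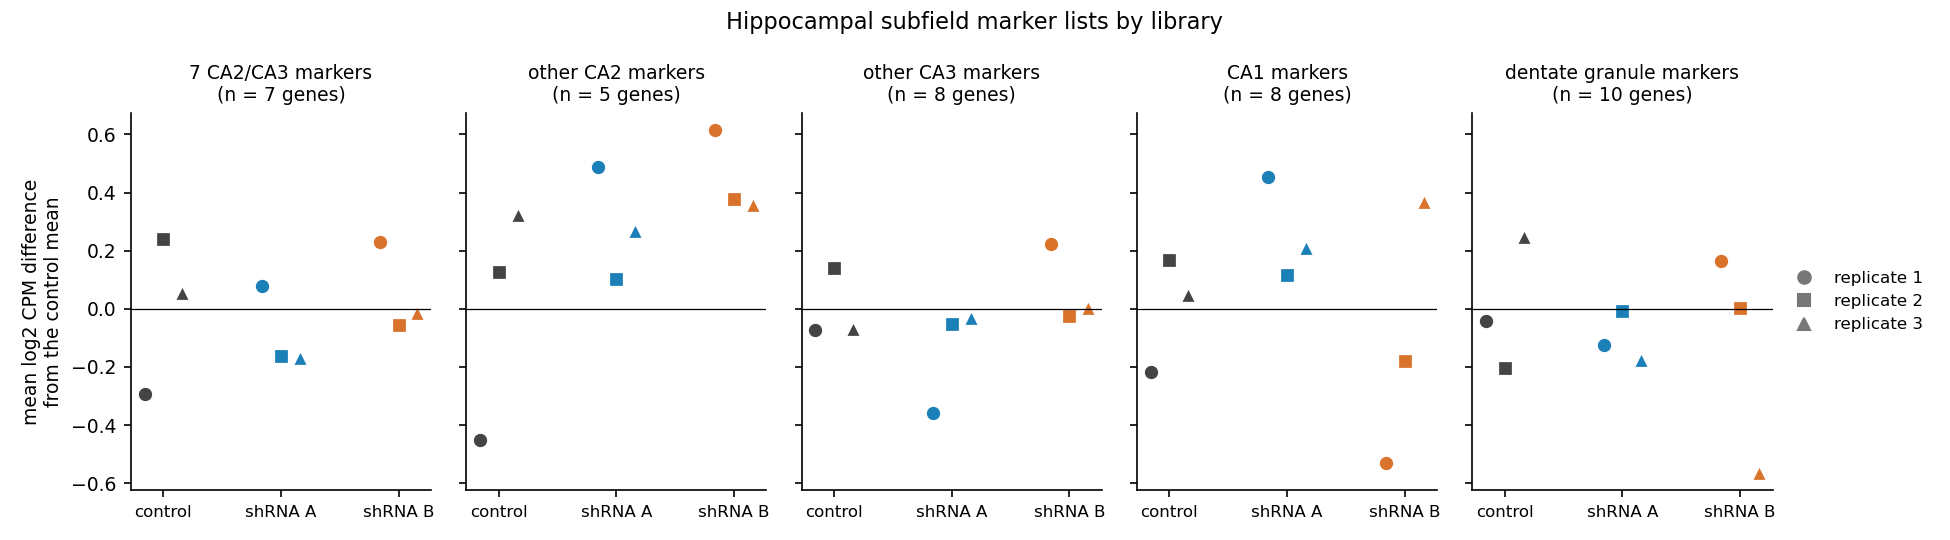
Mean log2 CPM difference from the control mean (y axis) over the genes of 5 marker lists (panels) in each library, grouped by hairpin on the x axis, with symbols for the replicate numbers. For the further CA2 markers, control replicate 1 lies at -0.45 and every other library above the control mean, at 0.10 to 0.61 (shRNA B at 0.36 to 0.61). For CA1 markers, shRNA B replicates 1 and 3 differ, at -0.53 and 0.37.

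Lists of interferon-response genes and of markers of other cells were read in the same libraries. The 8 interferon-response genes gave 62.2 to 69.0 CPM in the controls, 86.2 to 117.5 CPM with shRNA A and 152 to 289 CPM with shRNA B, and 6 of 8 rose with shRNA B by edgeR. The 8 microglial markers gave 436 to 463 CPM, 471 to 529 CPM and 538 to 615 CPM, and 4 of 8 rose with shRNA B, namely C1qa, C1qb, C1qc and Ctss, which were named after their values were seen. Over all genes, the count called with shRNA B fell from 167 to 13 without control replicate 1, to 23 without control replicate 2 and to 19 without control replicate 3. The 8 oligodendrocyte markers gave 3001 to 4911 CPM, 4233 to 6620 CPM and 3405 to 6946 CPM, with 0 of 8 called. The 6 meningeal markers gave 29.0 to 57.6 CPM, 21.8 to 27.5 CPM and 23.9 to 27.9 CPM, highest in control replicate 1. The 4 mossy cell markers gave 20.9 to 53.6 CPM, 18.9 to 21.8 CPM and 17.0 to 22.3 CPM, again highest in control replicate 1, the library lowest in 4 of the 7 genes. Ttr, the main choroid plexus transcript, was 935 CPM in control replicate 3 and 1.42 to 16.2 CPM elsewhere. No marker of these lists was at 0 in all libraries, and the part of these differences in the values of the 7 genes was not tested.

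Genes whose log2 CPM followed each of the 7 genes most closely over the 9 libraries were ranked by Pearson's r among genes averaging 5 CPM or more. These are descriptions, given without a test, of the best of about 11799 comparisons each, over libraries that share depth and tissue makeup. Nptx1 was followed most closely by Parva (r = 0.96), Acvr1c (0.96) and Cplx2 (0.95), which encode an actin-binding protein of integrin contacts, an activin-type receptor and a regulator of synaptic vesicle fusion. Cplx2 measured 2472, 2475 and 2461 CPM in the controls, 1968, 2063 and 2092 CPM with shRNA A and 2300, 2253 and 1995 CPM with shRNA B, so that its groups did not overlap with the controls either. Rgs14 was followed by Dock4 (0.95), Cnksr2 (0.93) and Mdga1 (0.93), and Amigo2 by Syndig1 (0.93), Ppp2r5c (0.90) and Bloc1s6 (0.89). The closest gene to Bok was A430005L14Rik (0.94), to Cpne4 Tdrp (0.91), to Necab2 Aldoart1 (0.95) and to Map3k15 Ltv1 (0.90). None of the 7 genes was among the closest 3 of another, and Map3k15, averaging less than 5 CPM, could not be listed for another gene. With 3 of about 11799 genes kept, that absence does not show whether the 7 genes varied together.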

How the data were processed

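RNA-seq libraries of 9 mice, 3 per hairpin group, were compared. The authors deposited 1 table, whose raw counts are whole numbers of reads for each Ensembl gene, as its headers name them. It further gives a normalized mean (signal), log2 fold changes with standard errors, a test score, and p-values with adjusted p-values, all deposited by the authors per the file headers. Tools listed in the submitters' processing notes are HTSeq 0.6.1, TopHat 1.4.1, DESeq2 1.4.5, SAMtools 0.1.19 and R 3.1.1, with build mm9. Which gene annotation served for counting was not stated. Libraries were not strand-specific, per the labels' protocols, so reads of overlapping antisense genes could not be assigned by strand. Whether the counting kept or dropped such reads is not known here.

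These counts went unchanged into edgeR 4.0.16 (R 4.3.3). After filterByExpr, 16438 genes were scaled by TMM and tested with the robust quasi-likelihood test on all 9 libraries, with Benjamini-Hochberg adjustment over all of them and a threshold of 0.05. Each shRNA and their mean were set against control, and shRNA B against shRNA A. The SE is the fold change divided by the square root of F. Log2 CPM used a prior count of 2, and single genes were compared by exact permutation, where 3 libraries against 3 cannot go below p = 0.1. Alternatives used DESeq2 1.42.0, limma 3.58.1 (voom), other scalings and filters, a replicate block and each library left out. The test was checked on simulated counts with known changes. Over the 4 contrasts it recovered 68.7% to 80.6% of 1.5-fold changes and 97.0% to 100% of 4-fold changes. The changed genes were drawn at random from those at 1 CPM or more, with noise independent between genes. They outnumbered the 4 genes that passed with shRNA A in the data. Apart from Nptx1, the members varied more, with coefficients of variation of 11.1% (Cpne4) to 36.6% (Map3k15) beside a median of 8.71%. The recovered shares therefore cannot be carried over to these genes. Of 181 to 199 genes called per contrast, 15 to 23 were false calls, a larger share than the threshold of 0.05. Counting floors cover counting error only, since reads carry no molecular identifiers.

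The 8 members and all lists were chosen with earlier results of these data known. Named were all members, genes of the further CA2, CA3 and family lists averaging 1 CPM or more that passed the threshold or were the extreme of their list in a contrast, the 3 genes most like each member, and Camta1. Alternatives for Camta1 and Pmaip1 were added after seeing the data. Avpr1b, averaging less than 1 CPM, and Camk2a were named after their values were seen. Lists of interneuron, astrocyte, endothelial, cortical, thalamic and striatal markers are given in the closing section.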

Additional observations from a re-analysis of the deposited data

How the results depend on the processing

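Of 497 alternative values for the 7 genes in 4 contrasts, 465 kept their direction and their side of the threshold, 30 changed sign and 2 gained a call, which was Nptx1 by DESeq2 with shRNA A and for the mean of both (1 of 7 genes called in each). Apart from left-out libraries, the sign changed for Map3k15 with shRNA A by limma-voom (0.088) and for Cpne4 in the mean of both under neuronal scaling (0.0023). Leaving out 1 library at a time, values with shRNA A ran from -0.30 to 0.068 for Bok, -0.23 to 0.024 for Cpne4, -0.22 to 0.10 for Rgs14 and -0.43 to 0.44 for Map3k15. With shRNA B they ran from -0.045 to 0.22 for Cpne4, -0.25 to 0.061 for Rgs14 and -0.21 to 0.66 for Map3k15. For the mean of both they ran from -0.086 to 0.23 for Bok, -0.13 to 0.12 for Cpne4, -0.23 to 0.080 for Rgs14 and -0.32 to 0.55 for Map3k15, and for shRNA B minus shRNA A from -0.13 to 0.14 for Rgs14, -0.26 to 0.13 for Amigo2 and -0.063 to 0.46 for Map3k15. Counts over all genes moved more. With shRNA A (4 genes) they were 9 without the filter, 2 without robust estimation, 43 by DESeq2, 1 by limma-voom, 18 with the compared groups alone, and 0 to 10 with 1 library left out. With shRNA B (167) they were 386 by DESeq2, 78 by limma-voom, 42 with the compared groups alone, and 13 to 217 with 1 library left out. For the mean of both (16) they were 67 without the filter, 243 by DESeq2 and 1 to 52 with 1 library left out, while shRNA B minus shRNA A (0) gave 21, 123 and 0 to 110 in the same order. The replicate numbers were not taken to pair the libraries, since same-numbered correlations ran from -0.128 to 0.273 over the 3 groups. Between the shRNA A and shRNA B libraries they were 0.108, 0.089 and 0.273 for replicates 1, 2 and 3, and differently numbered pairs ran from -0.202 to 0.10. A replicate block gave 31 genes for the mean of both and 1 for shRNA B minus shRNA A, and changed no call among the 7 genes, though that of Pmaip1 with shRNA B was lost (adjusted p 0.0692). The cause of these shifts was not tested. Map3k15, at 49 or more reads per library, was limited by its spread between libraries rather than by counting.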

Other observations

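Marker lists of cells and regions not described above are given by count and median log2 fold change, with shRNA A first and shRNA B second, by edgeR. The 8 interneuron markers had medians of 0.13 and -0.14, and for shRNA B minus shRNA A 0 of 8 were positive with a median of -0.22. The 6 markers of cortex and subiculum had medians of 0.22 and -0.12, the 4 thalamic markers 0.06 and 0.06, the 4 striatal markers -0.03 and 0.04, and the 4 endothelial markers -0.01 and -0.02. None of these lists held a gene past the threshold. The 6 astrocyte markers had medians of 0.04 and -0.04, and 1 of 6 rose with shRNA B, Aldh1l1, by 0.47 ± 0.070 (adjusted p 0.0137). With shRNA B 4 of 6 were negative, among them Gja1 at -0.48 (adjusted p 0.0614) and Slc1a2 at -0.28 (0.282), while Gfap stood at 0.64 (0.0608), and these 3 did not pass the threshold. The 5 tested choroid plexus markers were all negative with either hairpin, and 0 of 5 passed the threshold. Their level was high in control replicate 3 alone, with a mean log2 difference from the control mean of 3.23 there and of -2.39 to -0.82 in the other 8 libraries, the remaining controls (-1.74 and -1.49) included. Of the 6 meningeal markers 0 were positive, with medians of -0.60 and -0.68, and 1 of 6 fell with shRNA B, Slc6a13, at -0.98 ± 0.19 (adjusted p 0.0376). Aldh1l1, Gja1, Slc1a2, Gfap and Slc6a13 were named after their values were seen.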
